A study of Solanum lycopersicum and Arabidopsis thaliana and Cannabis sativa with 28 samples.

Results

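The domains described here are the 597 of 18758 tomato H3K4me3 domains (3.18%) in which the merged H3K4me3 libraries held less than 1.2 times as many reads as the merged IgG libraries. They are called low-ratio domains below. They were selected on their measured read counts, so their low ratio is a description and not a result, and no test was made of any value from the same counts. H3K4me3, the trimethylation of lysine 4 of histone H3, is deposited around the start of transcribed genes and usually forms short blocks of high read density there. H3K9ac, an acetylation of the same histone tail, also marks active promoters and commonly lies over the same genes. A nonspecific IgG binds no chosen chromatin protein, and its reads measure what the procedure recovers without a specific antibody.

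Whole seedlings of the tomato variety Micro-Tom, 2 weeks old, were used throughout. The H3K4me3 and IgG libraries came from seedlings labelled as untreated, with 3 replicates each. The H3K9ac libraries came from seedlings exposed to jasmonate for 2 h (2hJA) and from control seedlings (ctrl), with 3 replicates each. Whole seedlings mix organs and cell types, and reads from few strongly marked cells and from many weakly marked cells cannot be told apart. The 3 replicates of each group were merged before domains were called, so each domain has a single pooled read count per group. No spread between replicates could be computed, and the intervals given below are 95% Clopper-Pearson intervals that cover counting error over reads, or over domains where a share of domains is given. Reads that are copies of the same fragment are not independent, nor are domains that lie close together, and such intervals are then too narrow. A domain is placed by its start and end in the Micro-Tom assembly SLM_r2.0, and genes were not assigned because no annotation of that assembly was used here. The 18758 listed domains held 5337518 H3K4me3 reads and 893709 IgG reads.

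The low-ratio domains held 160829 H3K4me3 reads and 181814 IgG reads on 1.15 Mb, a pooled ratio of 0.885 (interval 0.879 to 0.891). The domains of ratio 1.2 or more held 5176689 H3K4me3 reads and 711895 IgG reads on 36.9 Mb, a pooled ratio of 7.27 (7.25 to 7.29). The low-ratio domains thus took 3.04% of the listed sequence and 3.01% of the H3K4me3 reads in listed domains, but 20.3% of the IgG reads. Among single domains the ratio had a median of 0.917 (lowest 0.672, highest 1.197) in the low-ratio domains and of 7.72 in the others. Of the 597 low-ratio domains, 393 (65.8%) held fewer H3K4me3 than IgG reads. The interval of the ratio lay wholly under 1 in 78 domains, all of them in the class rich in IgG described below. That class had a median of 114 IgG reads per domain, against 48 in the other low-ratio domains, and few reads give wide intervals. In 0 domains did the interval lie wholly over 1, for which the limit of 1.2 leaves little room. Even the highest ratio, from 79 H3K4me3 and 66 IgG reads, had an interval of 0.852 to 1.69.

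Whether these domains lie above IgG at all was a matter of scaling. The log2 fold change deposited with each domain equals the log2 ratio of its reads plus 0.74, the same number in every row. On that scale all 597 domains lay above 0, with values of 0.17 to 1.00 and a median of 0.62, against a median of 3.69 in the domains of ratio 1.2 or more. A log2 fold change of at least 1, the threshold of the study, was met by 18163 of the 18758 listed domains (96.8%) and by 2 of the 597 low-ratio domains, as the ratio limit lies just over that threshold. With no scaling 393 of the 597 lay below 0. Scaled by the totals of aligned reads 549 did, with a median of -0.32, and scaled by those totals less the reads in listed domains 312 did, with a median of -0.011. Scaled by the totals of uniquely aligned reads all 597 lay below 0 (median -0.79), as did 545 domains of higher ratio, and with the reads in listed domains taken off these totals 499 of the 597 did (median -0.28). The deposited constant of 0.74 corresponded to none of these totals, and the totals of aligned reads rest on a list in which the headings of depth and alignment rate appear exchanged. The false discovery rate listed with a low-ratio domain had a median of 0.000200 and exceeded 0.01 in 90 of them (15.1%), and in 0 of the 18161 others.

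At the limit the domains formed a continuous series. The 3 low-ratio domains with the highest ratio lay on chromosome 8 at 2610400 to 2613599 (79 H3K4me3 and 66 IgG reads, ratio 1.197), on chromosome 8 at 56920600 to 56923199 (also 79 and 66 reads) and on chromosome 7 at 8786600 to 8787999 (49 and 41 reads, ratio 1.195). The 3 first domains on the other side of the limit all had a ratio of 1.2, with 72 H3K4me3 and 60 IgG reads at 40095200 to 40097199 on chromosome 6, 54 and 45 reads at 45054200 to 45056199 on chromosome 6, and 42 and 35 reads at 27078800 to 27080199 on chromosome 8. All 6 held between 20.6 and 30.02 IgG reads per kb, and all 6 lay inside a listed H3K9ac domain. Among all listed domains under 50 IgG reads per kb, 66.9% overlapped such a domain at ratios of 1 to 1.2 and 66.4% from 1.2 to 1.5.

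IgG reads divided the low-ratio domains into 2 classes. The IgG density had a median of 75.1 reads per kb in the low-ratio domains, with quartiles of 24.5 and 175 and a range of 15.3 to 996. In the domains of ratio 1.2 or more the median was 19.1, the quartiles were 16.4 and 21.8, and the highest value was 158. In the low-ratio domains the values fell into a narrow peak under 30 reads per kb, which held 241 domains, and a broad one that began near 50. Only 4 domains lay between 40 and 50. The low-ratio domains were therefore divided at 50 IgG reads per kb, a value chosen after the distribution was seen, into 327 IgG-rich and 270 IgG-moderate domains.

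**Figure D1:**
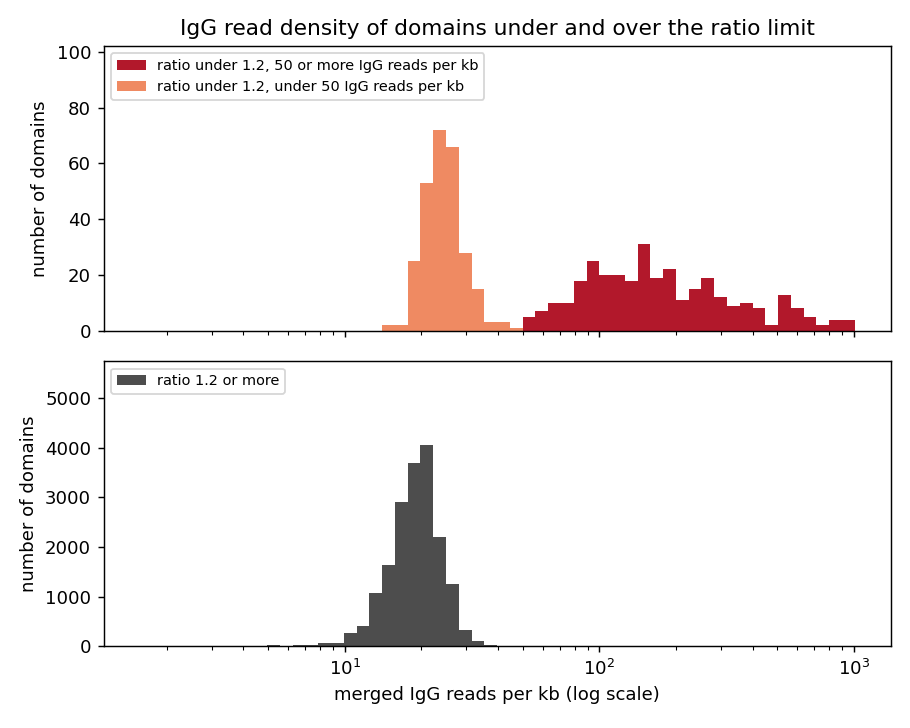
Number of domains (vertical axis) by merged IgG reads per kb (horizontal axis, log scale), for the low-ratio domains above and the domains of ratio 1.2 or more below. The low-ratio domains show a narrow peak with a median of 23.9 reads per kb in the 270 IgG-moderate domains and a broad one with a median of 158 in the 327 IgG-rich domains, while the others form a single peak with a median of 19.1.

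The IgG-rich domains, set apart by their IgG density, held most of the IgG reads of the low-ratio domains. They held 146498 H3K4me3 and 167769 IgG reads, 18.8% of the IgG reads of all listed domains on 1.48% of the listed sequence, and their pooled ratio was 0.873 (0.867 to 0.879). Their median density was 136 H3K4me3 reads and 158 IgG reads per kb. The IgG-moderate domains held 14331 H3K4me3 and 14045 IgG reads, a pooled ratio of 1.02 (0.997 to 1.04), at median densities of 25.01 H3K4me3 and 23.9 IgG reads per kb. Their median IgG density lay above the upper quartile of the domains of ratio 1.2 or more, 21.8, and just under the 24.5 that 90% of those domains did not exceed, while their median H3K4me3 density lay far under the 146 of those domains. The IgG-rich domains came near the domains of ratio 1.2 or more in median H3K4me3 density and lay far above them in IgG density. The same IgG reads divided the classes and entered the ratio that chose the domains. The share of IgG reads and the IgG density of each class are therefore a description and not a result.

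A high IgG density was found almost only in low-ratio domains. Of the 343 listed domains with at least 50 IgG reads per kb, 327 (95.3%) were low-ratio domains. At 100 or more reads per kb this held for 252 of 257 domains (98.1%), and at 200 or more for 122 of 122. The same IgG reads entered the ratio that chose the domains, so these shares are a description. Across the 597 low-ratio domains the log2 densities of H3K4me3 and IgG had a correlation of 0.99, which the ratio limit and the threshold for listing force to be high, whereas it was -0.021 across the 18161 others. Each correlation compares counts of the same domains from the same pooled libraries and is given as a description.

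**Figure D2:**
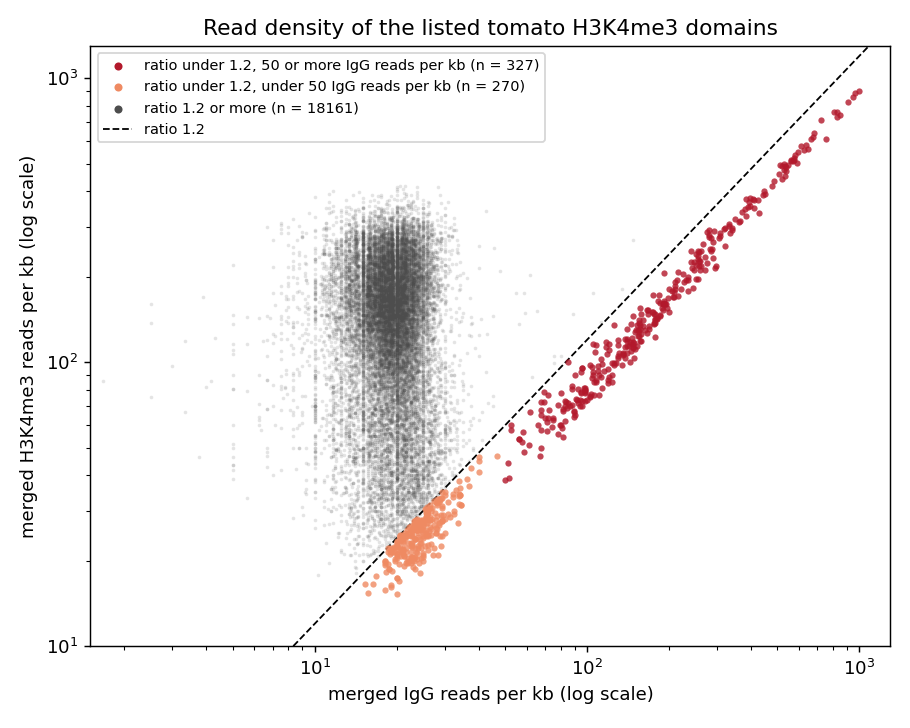
Merged H3K4me3 reads per kb (vertical axis) against merged IgG reads per kb (horizontal axis, both log scales), 1 point per listed domain, with the ratio limit of 1.2 as a dashed line. The IgG-rich domains extend along the line up to 902 H3K4me3 and 996 IgG reads per kb, while the domains of ratio 1.2 or more stand as a column near 19.1 IgG reads per kb.

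The 3 low-ratio domains with the most IgG reads per kb were also the 3 with the most H3K4me3 reads per kb. The first lay on chromosome 1 at 66245200 to 66245999 and held 721 H3K4me3 and 796 IgG reads on 799 bp, which is 902 and 996 reads per kb (ratio 0.906, interval 0.818 to 1.003). The next, on chromosome 2 at 19425600 to 19446599, held 18674 H3K4me3 and 20267 IgG reads, or 889 and 965 per kb (ratio 0.921, 0.903 to 0.940). The third lay on chromosome 11 at 11419400 to 11419799, with 342 and 377 reads or 857 and 945 per kb (ratio 0.907). These H3K4me3 densities exceeded the highest of any domain of ratio 1.2 or more, 418 reads per kb. None of the 3 overlapped a listed H3K9ac domain.

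At the other end, the 3 low-ratio domains with the fewest IgG reads per kb were of ordinary size and thinly covered in both libraries. The domain on chromosome 2 at 52507200 to 52510399 held 53 H3K4me3 and 49 IgG reads (16.6 and 15.3 per kb). The domain on chromosome 1 at 86342200 to 86344999 held 43 and 44 reads, and that on chromosome 12 at 7776000 to 7779799 held 63 and 62. Their ratios of 1.08, 0.977 and 1.02 had intervals that all spanned both 1 and 1.2. The first and second lay inside listed H3K9ac domains and the third did not.

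The lowest ratios came from IgG-rich domains of several kb. On chromosome 12 at 48181400 to 48185399, 219 H3K4me3 and 326 IgG reads gave a ratio of 0.672 (0.563 to 0.7997). On chromosome 1 at 87347200 to 87356599, 1151 and 1663 reads gave 0.692 (0.641 to 0.747), and on chromosome 7 at 14145400 to 14147799, 205 and 295 reads gave 0.695 (0.579 to 0.833). Among the 25 low-ratio domains with at least 1000 IgG reads, a minimum chosen after the values were seen, the ratio ranged from 0.692 to 1.003 with a median of 0.896, and 24 had an interval wholly under 1. A domain with a ratio under 0.598 would have had a deposited log2 fold change under 0, and the table lists none.

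The low-ratio domains were shorter than the others at the median and included both the longest and most of the shortest domains listed. Their median size was 1399 bp (quartiles 599 and 2199, range 199 to 39599), against 1799 bp in the domains of ratio 1.2 or more (quartiles 1199 and 2399, highest 13799). The 2 classes differed. The IgG-rich domains had a median of 599 bp, with 49 of 327 at 199 bp and the longest at 39599 bp, and the IgG-moderate domains a median of 1999 bp and a range of 799 to 4999 bp.

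Domains are built from windows of 200 bp, and those of a single window were mostly low-ratio domains, at 49 of 57 (86.0%). At up to 400 bp stood 138 low-ratio domains (23.1%) and 155 others (0.853%), and all 138 were IgG-rich. Over 5 kb stood 27 low-ratio domains (4.52%), again all IgG-rich, and 396 others (2.18%). Size and density are tied by the calling, as a domain of 1 window needs many reads per kb to be listed at all, and the fewest H3K4me3 reads in any listed domain were 19. The absence of short IgG-moderate domains is therefore partly set by which domains the table can list.

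The 3 longest low-ratio domains were longer than any domain of higher ratio. The longest covered 39599 bp on chromosome 9 at 33411000 to 33450599 and held 32605 H3K4me3 and 35948 IgG reads, which is 19.8% of all IgG reads in low-ratio domains. The second covered 22999 bp on chromosome 11 at 55007600 to 55030599, with 2244 and 3099 reads (ratio 0.724, 0.686 to 0.765). The third covered 21199 bp on chromosome 1 at 87402800 to 87423999, with 2131 and 3038 reads (ratio 0.701, 0.663 to 0.742). None overlapped a listed H3K9ac domain.

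Low-ratio domains occurred on all 12 chromosomes. Their share of the listed domains was lowest on chromosome 4, at 34 of 1654 (2.06%, 1.43 to 2.86), and highest on chromosome 12, at 58 of 1302 (4.45%, 3.40 to 5.72). Chromosome 1 held the most, at 92 of 2785 (3.30%). Chromosome 9 followed with 65 of 1630 (3.99%), and these held 71378 of the 181814 IgG reads, 59858 of them in the cluster described below. In order of share, adjacent chromosomes had overlapping intervals, while those of chromosomes 3, 4 and 6 lay wholly below that of chromosome 12.

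Along the chromosomes the 2 classes were placed differently. Position was given as a percentage of the end of the last listed domain of a chromosome. Between 20 and 80% of that length lay 259 of the 597 low-ratio domains (43.4%, 39.4 to 47.5), against 3660 of 18161 others (20.2%, 19.6 to 20.7). This held for 189 of the 327 IgG-rich domains (57.8%, 52.2 to 63.2) and for 70 of the 270 IgG-moderate domains (25.9%, 20.8 to 31.6). In steps of 10% the IgG-rich domains were spread nearly evenly, with 8.87 to 12.5% of them in each step. The IgG-moderate domains followed the others, with 22.6% in the first step and 29.6% in the last, against 24.3 and 33.0% of the domains of ratio 1.2 or more. As few domains of any kind were listed in chromosome interiors, low-ratio domains made up 9.84% of the domains between 40 and 50%, and 2.02 and 1.98% of those in the first and last steps.

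**Figure D3:**
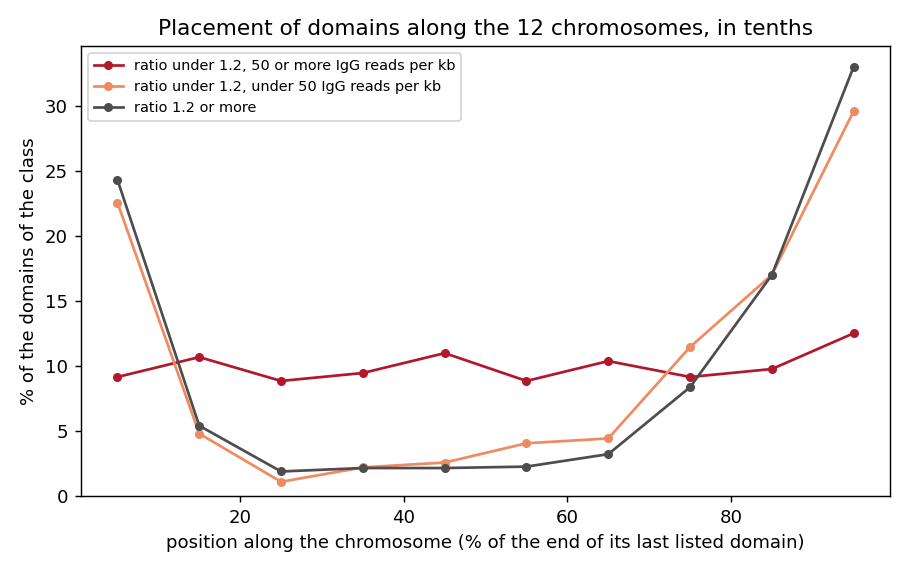
Percentage of the domains of each class (vertical axis) in 10% steps along the 12 chromosomes (horizontal axis, percentage of the end of the last listed domain of each chromosome). The IgG-rich domains stay between 8.87 and 12.5% in every step, while the IgG-moderate domains and the domains of ratio 1.2 or more are concentrated at both chromosome ends.

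The local density of listed domains gave the same contrast. Within 500 kb of a low-ratio domain lay a median of 26 other listed domains (quartiles 9 and 79), against 72 (33 and 90) around domains of ratio 1.2 or more. The median was 13 for the IgG-rich and 69 for the IgG-moderate domains. At most 20 neighbours within 500 kb were found for 211 IgG-rich domains (64.5%), 61 IgG-moderate domains (22.6%) and 3324 domains of ratio 1.2 or more (18.3%). Low-ratio domains made up 9.16% of the listed domains with 0 to 5 neighbours and 2.00% of those with 81 or more. The nearest domain of ratio 1.2 or more lay at a median distance of 25001 bp from an IgG-rich domain, 4301 bp from an IgG-moderate domain and 5201 bp from another domain of ratio 1.2 or more.

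Most low-ratio domains stood apart from each other. Another low-ratio domain lay within 100 kb of 167 of the 597 (28.0%, 24.4 to 31.8), whereas a low-ratio domain lay within 100 kb of 4245 of the 18161 others (23.4%, 22.8 to 24.0). The shares were 30.3% for IgG-rich and 25.2% for IgG-moderate domains. The order of the low-ratio domains and the others depended on the limit, as the shares were 38.7 and 39.4% with a limit of 1.5 and 21.6 and 12.9% with 1.0. The shares were not matched for listed neighbours within 500 kb, which had medians of 26 and 72 in the low-ratio domains and the others. Linking low-ratio domains within 100 kb of each other left 430 on their own and joined the 167 into 68 clusters, of which 54 were pairs and 9 held 3 domains. Of the 68 clusters, 27 held only IgG-rich domains, 23 only IgG-moderate domains and 18 both.

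The largest cluster held 14 low-ratio domains on chromosome 1 at 87338000 to 87497399, all IgG-rich. Their reads summed to 7950 for H3K4me3 and 10545 for IgG, a ratio of 0.754 (0.732 to 0.776). Single domains had ratios of 0.692 to 0.923 and 83.9 to 185 IgG reads per kb. The region is otherwise dense in domains of higher ratio, as 31 of them lay wholly within 100 kb of the cluster, 7 of these between its first and last domain. Those 31 had a median ratio of 6.85, a median of 19.3 IgG reads per kb and a highest value of 30.04. The IgG densities of the 14 and of the 31 domains did not overlap. The same IgG reads entered the ratio that divides them. Of all domains of ratio 1.2 or more, only 16 of 18161 (0.0881%) reached 50 IgG reads per kb.

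**Figure D4:**
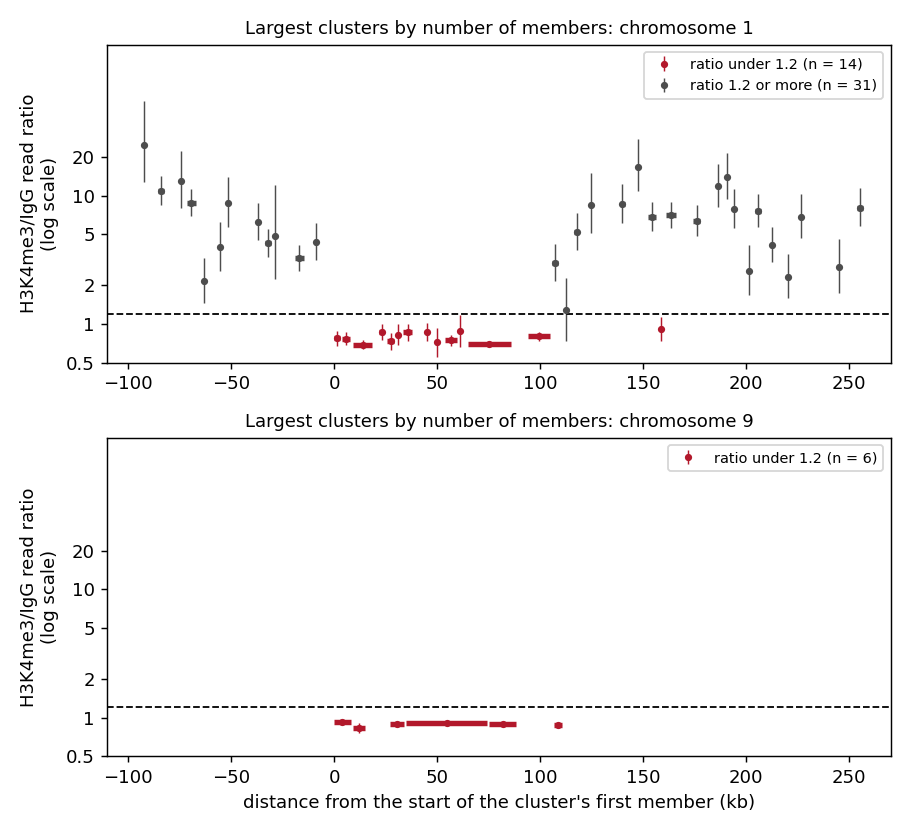
Ratio of H3K4me3 to IgG reads (vertical axis, log scale) by distance in kb from the start of the first low-ratio domain (horizontal axis) in the clusters of 14 and 6 low-ratio domains on chromosomes 1 and 9. Points are domains with 95% intervals for counting error, horizontal bars their extent, and the dashed line the limit of 1.2, with 31 domains of higher ratio around the cluster on chromosome 1 and 0 around that on chromosome 9.

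The second cluster, 6 low-ratio domains on chromosome 9 at 33376200 to 33486999, stood alone. No domain of ratio 1.2 or more was listed within 100 kb of it. It held 53985 H3K4me3 and 59858 IgG reads, a ratio of 0.902 (0.891 to 0.912), at 698 and 773 reads per kb. Its 6 domains ranged from 155 to 908 IgG reads per kb and from 0.830 to 0.917 in ratio. This region of 110799 bp held 32.9% of the IgG reads and 33.6% of the H3K4me3 reads of all low-ratio domains.

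The third place by number was shared by 3 clusters of 4 low-ratio domains. On chromosome 8 at 41286800 to 41349799, 2 of the 4 domains were IgG-rich and 2 overlapped H3K9ac domains, and the summed reads of 668 and 804 gave a ratio of 0.831 (0.749 to 0.922). On chromosome 10 at 42383200 to 42401799, 1244 and 1567 reads gave 0.794 (0.736 to 0.856), and on chromosome 11 at 14597400 to 14638999, 1783 and 1984 reads gave 0.899 (0.843 to 0.959). All 4 domains were IgG-rich in both. By reads instead of number, the cluster after that on chromosome 9 was one of 3 domains on chromosome 2 at 19414000 to 19446599, with 21571 H3K4me3 and 23448 IgG reads (ratio 0.920, 0.903 to 0.937). The clusters on chromosomes 9, 2 and 1 together held 51.6% of the IgG reads of the low-ratio domains. Without these 3, chosen after their reads were seen, the low-ratio domains held 10.997% of the IgG reads in listed domains, in place of 20.3%.

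H3K9ac was measured in other libraries and was not used to choose the domains. Of the low-ratio domains, 219 of 597 (36.7%, 32.8 to 40.7) overlapped a listed H3K9ac domain by at least 1 bp, against 15425 of 18161 domains of ratio 1.2 or more (84.9%, 84.4 to 85.5). Most of the difference lay in the IgG-rich domains, with 39 of 327 (11.9%, 8.62 to 15.9). Of the IgG-moderate domains, 180 of 270 (66.7%, 60.7 to 72.3) overlapped. Domains are not replicates of a condition, so these intervals describe the listed domains and not seedlings. The table of H3K9ac domains lists only domains with more reads in 2hJA than in ctrl after scaling (lowest log2 fold change 0.051), and H3K9ac outside listed domains was not analysed here.

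**Figure D5:**
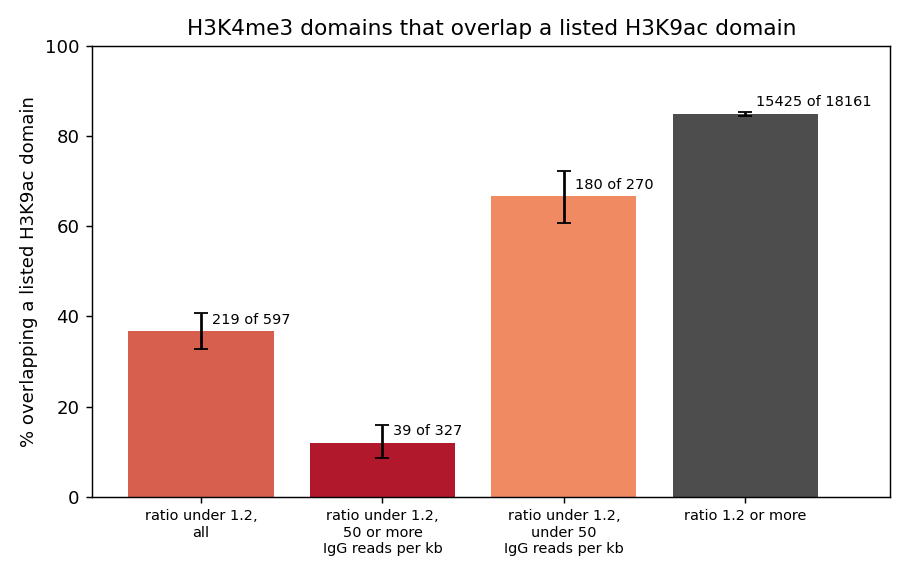
Percentage of H3K4me3 domains that overlap a listed H3K9ac domain by at least 1 bp (vertical axis), for the low-ratio domains, their IgG-rich and IgG-moderate classes and the domains of ratio 1.2 or more, with 95% intervals over domains as error bars. The share is 11.9% for the IgG-rich and 66.7% for the IgG-moderate domains, against 84.9% for the domains of ratio 1.2 or more.

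Within the IgG-rich domains, 12 of 75 (16.0%) overlapped an H3K9ac domain at 50 to 100 IgG reads per kb. So did 15 of 130 (11.5%) at 100 to 200, 9 of 76 (11.8%) at 200 to 400 and 3 of 46 (6.52%) at 400 or more, and the differences were not tested. None of the 25 low-ratio domains with at least 1000 IgG reads did. The placement of the domains moved with this share. Where at most 20 listed domains lay within 500 kb, 7 of 211 IgG-rich domains (3.32%) overlapped, 39 of 61 IgG-moderate domains (63.9%) did, and 2759 of 3324 domains of ratio 1.2 or more (83.0%) did. Where more than 20 lay within 500 kb, the shares were 27.6, 67.5 and 85.4%. The IgG-rich domains thus had the lowest share in both kinds of neighbourhood.

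The IgG-moderate domains resembled the domains just over the limit in their share over H3K9ac. Among listed domains under 50 IgG reads per kb, the share over H3K9ac was 66.3% (55.5 to 76.0) at a ratio under 1 and 66.9% (59.5 to 73.7) from 1 to 1.2, both IgG-moderate, against 66.4% (61.2 to 71.3) from 1.2 to 1.5, 69.4% from 1.5 to 2, 72.7% from 2 to 4 and 88.5% at 4 or more. The median number of other domains within 500 kb was 69 in both IgG-moderate groups and 66 from 1.2 to 1.5. In size the order was different, with medians of 2399 and 1999 bp in the IgG-moderate groups and 1799 bp from 1.2 to 1.5.

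The H3K9ac domains over low-ratio domains were of moderate density, and long where they also overlapped a domain of ratio 1.2 or more. The 219 low-ratio domains lay over H3K9ac domains with a median of 8399 bp, 85.7 reads per kb in 2hJA and 80.5 in ctrl, against 4599 bp, 114 reads per kb in 2hJA and 109 in ctrl for the 11936 H3K9ac domains that overlapped only domains of ratio 1.2 or more. Of the 219, 121 H3K9ac domains also overlapped a domain of ratio 1.2 or more (median size 13399 bp) and 98 did not (4699 bp). By definition the 121 overlapped more than 1 listed H3K4me3 domain, whereas the 11936 overlapped a median of 1. A longer domain can overlap more of them, so the sizes of the 121 and of all 219 are not matched to those of the 11936. The 98 had medians of 68.7 reads per kb in 2hJA and 66.9 in ctrl, which lay above the 52.03 in 2hJA and 46.0 in ctrl of the 5300 H3K9ac domains over no listed H3K4me3 domain. The median log2 fold change of 2hJA over ctrl was 0.26 (interval of the median 0.23 to 0.28) over low-ratio domains. It was 0.23 (0.21 to 0.26) for the 121 and 0.30 (0.25 to 0.33) for the 98. The 11936 had a median of 0.29 and the 5300 one of 0.36, and the differences were not tested.

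The 3 low-ratio domains under the H3K9ac domains of highest log2 fold change were all IgG-moderate. The domain on chromosome 10 at 58672200 to 58674399 (54 H3K4me3 and 59 IgG reads) lay in an H3K9ac domain of 22399 bp with 2155 reads in 2hJA and 929 in ctrl, a log2 fold change of 1.45. The domain on chromosome 1 at 80761400 to 80763199 (43 and 42 reads) lay in one with 2369 reads in 2hJA and 1520 in ctrl (0.87). The domain on chromosome 8 at 63070600 to 63073399 (77 and 65 reads) lay in one of 30999 bp with 3347 and 2180 reads in 2hJA and ctrl (0.85). Each of these H3K9ac domains also overlapped at least 1 domain of ratio 1.2 or more, so the reads gained after jasmonate cannot be assigned to the low-ratio domain.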

How the data were processed

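The authors aligned reads to the Micro-Tom assembly SLM_r2.0 with Bowtie2 2.4.1, pooled the 3 replicates per group and ran epic2 0.0.52 on the pools to find domains. The tool is listed in the submitters' processing notes as SICER. The merged IgG libraries were the control for H3K4me3, and merged ctrl the control for 2hJA H3K9ac. For each domain the authors deposited whole read counts of both libraries, a p-value corrected as a false discovery rate (at most 0.05) and a log2 fold change. Gap sizes and the treatment of duplicate reads and of reads with several alignments are not given in the sources used here. The labels describe fragmentation by sonication and the study's methods by MNase for tomato. The labels' treatment field does not mark the 2hJA samples, whose group was taken from their titles.

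Ratios were computed from the deposited counts with no pseudocount, densities by size as end minus start, and distances between the nearest ends of domains. Clusters linked low-ratio domains within 100 kb. Depth is given as reads in listed domains. Totals of aligned and uniquely aligned reads from the study's supplement served only as scaling alternatives, and the columns of depth and alignment rate, which appear to stand under each other's heading, were read by their values. With pooled libraries no test was run. The low-ratio domains, the measures and the lists were chosen with earlier results of these data known. Single domains were named by rank: the 3 with the most and the fewest IgG reads per kb, the most H3K4me3 reads per kb, the lowest ratio, the largest size, the clusters with most domains, the H3K9ac domains of highest log2 fold change, and the 3 nearest on each side of the limit. The functions were tested on simulated domains. Tables were handled in pandas 2.3.3 and NumPy 2.4.6 under Python 3.11.15, intervals were computed with SciPy 1.17.1, and figures drawn with matplotlib 3.10.9.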

Additional observations from a re-analysis of the deposited data

How the results depend on the processing

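The replicates were merged before deposit, so no replicate could be left out. No paired analysis was possible because the counts are pooled over replicates and no result comes from a test. Of 50 alternatives, 23 left the value within its interval, or a count within 1.5 times, and 27 moved it. In 41 the low-ratio domains and the others could be compared, and in 40 their order was kept. The exception was clustering with a limit of 1.5. The 41 include the IgG and H3K4me3 densities, whose reads entered the ratio that chose the domains. Their order is tied to that choice, so its being kept is a description.

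The number of low-ratio domains was 393 with a limit of 1.0, 961 with 1.5, 1142 where the limit was a log2 ratio of 0 after scaling by uniquely aligned totals, 1520 where it was a log2 ratio of -2 after scaling by the reads in the other domains, and 226 where the interval had to lie under the limit. With limits of 1.0 and 1.5, the medians were 136 and 26.3 IgG reads per kb and 109 and 33.4 H3K4me3 reads per kb. Another low-ratio domain lay within 100 kb of 21.6 and 38.7%, against 12.9 and 39.4% of the others. H3K9ac was overlapped by 22.9 and 47.8%, against 84.7 and 85.3% of the others. Within 500 kb lay 16 and 41 domains, against 72 around the others with either limit. The median size was 999 bp with a limit of 1.0. Among domains of at most 2 kb the medians were 99.3 IgG and 83.9 H3K4me3 reads per kb, and 31.0% overlapped H3K9ac, against 83.1% of the others. Counting only H3K9ac domains of log2 fold change at least 0.5, 2.85% overlapped, against 6.06%. Other distances gave 18.4% at 50 kb and 40.4% at 200 kb for clustering, against 13.0 and 39.1% of the others. At 250 kb and 1000 kb they gave 13 and 50 neighbours, against 36 and 136 around the others. Chosen after seeing the data, a division at 30 IgG reads per kb gave 16.0% over H3K9ac in the IgG-rich class, one at 100 gave 55.7% in the IgG-moderate class, and leaving out the 3 clusters with most reads gave 10.997% of the IgG reads. Why these values moved was not tested. Depth limits the ratio of single domains, as the median low-ratio domain held 59 H3K4me3 and 63 IgG reads.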

Other observations

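High IgG density without a low ratio was rare. Of the 18161 domains of ratio 1.2 or more, 16 held at least 50 IgG reads per kb, with ratios of 1.215 to 3.30 and a median of 1.66, and 10 of the 16 overlapped a listed H3K9ac domain. The domain with the most IgG reads among them lay on chromosome 4 at 1089000 to 1093999, where 1342 H3K4me3 and 737 IgG reads gave a ratio of 1.82 (interval 1.66 to 1.99) at 147 IgG reads per kb, and it overlapped no listed H3K9ac domain. These domains were chosen after their values were seen.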
